A study of Homo sapiens with 6 samples.

Results

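A set of 34 genes of the NF-kB system was followed in BT549 cells, an established line of human breast carcinoma: 19 secreted cytokines, chemokines and growth factors, 5 NF-kB subunits, 4 genes of IkB proteins and A20, and 6 other targets of the pathway. They were taken by symbol from a list, and all 34 were among the 19923 genes of the deposited table. This list, like the other gene lists used below, was chosen with earlier results of these data known. Shares of called genes in a list, set beside those of all genes, are therefore description and not a test. RNA sequencing covered 3 libraries of cells labelled control and 3 of cells whose treatment is given as ENL. All 6 libraries come from the same cell line, and the labels do not say what ENL stands for or give a dose, a duration, a vehicle or whether the cultures behind a group's libraries were separate. P-values therefore measure only the spread between these libraries, which may be technical.

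NF-kB is a family of dimeric transcription factors made from RELA, RELB, REL and the processed products of NFKB1 and NFKB2. In resting cells IkB proteins hold most dimers in the cytoplasm. The canonical branch is set off by TNF, IL-1 or Toll-like receptors. There the IkB kinase marks IkB-alpha for degradation, which frees dimers such as p50 with RELA. The non-canonical branch works through the kinase NIK and the processing of NFKB2 to p52, which pairs with RELB. Many NF-kB targets are secreted inflammatory factors, and others, such as NFKBIA and TNFAIP3, encode inhibitors that shut the pathway down again. Many mesenchymal breast cancer lines secrete IL-6, CXCL8 and related chemokines without added stimulus.

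The library totals ran from 74457932 to 85310759 units of an estimated count. Judged from the spacing of low values, 1 sequenced fragment appeared to be worth about 4 units, since the counting settings are not given. Markers of the line were mixed: mesenchymal VIM was at 2744 CPM (the normalised read count relative to library size) in control and 5949 in ENL, and epithelial EPCAM and CDH1 had at most 17 and 29 units in any library. Of the other mesenchymal markers, FN1 was at 289.9 and 387.5 CPM in control and ENL, AXL at 144.4 and 150.6 and ZEB1 at 77.7 and 113. CDH2 was lower, at 3.94 and 7.23. Some luminal or epithelial genes were present, with KRT8 at 15.8 and 38.0 CPM in control and ENL, KRT18 at 26.3 and 23.95 and GATA3 at 30.1 and 31.6. Others were low, with ESR1 at 0.80 and 0.70 and ERBB3 at 1.15 and 0.60. ENL library 3 stood apart from ENL libraries 1 and 2 on the second principal component, with a score of -35.7 against 10.8 and 20.3. Control library 2 was the library with most leukocyte transcripts: 10 of 12 leukocyte markers were highest there and 0 of 12 were at a count of 0, against 5 to 7 markers at 0 in the other libraries. Leaving aside CD14 and CD68, the other 10 leukocyte markers summed to 4.10 CPM in control library 2 and to between 0.282 and 1.17 CPM elsewhere. Of 6 endothelial markers CDH5 and KDR were at 0 in all libraries and PECAM1 and CLDN5 in the ENL libraries, while VWF had 445 to 692 units and TEK 11 to 68.

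ENL-treated cells showed no uniform shift of the NF-kB system. Of the 18 tested secreted factors 7 rose (38.9%, against 20% of all genes tested), 6 fell (33.3%, against 18.4%) and 5 did not pass the test. TNF was too low to be tested. The granulocyte factor CSF3 and the chemokine CCL20 fell most, 7.08-fold and 5.89-fold, while CXCL3, IL6, LIF, CXCL5, CXCL2, CCL5 and CSF1 rose. Of the 9 subunit, IkB and A20 genes 5 rose (55.6%, all genes 20%), namely NFKB2, RELB, NFKBIA, NFKBIE and TNFAIP3. Of the same genes 1 fell, NFKB1 (11.1%, all genes 18.4%), and 3 did not pass. Of the 6 other targets 0 rose (all genes 20%) and 2 fell, ICAM1 and SOD2 (33.3%, all genes 18.4%).

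Across 14086 genes tested by edgeR (quasi-likelihood, Benjamini-Hochberg), 21 of the 33 tested members (63.6%) passed an adjusted p of 0.05, where 38.4% of all genes tested did. Higher in ENL were 12 members (36.4%, all genes 20%) and lower were 9 (27.3%, all genes 18.4%). When genes needed 1 CPM or more in 3 libraries to be tested, 43.1% of all genes passed. The 3 ENL libraries lay wholly above or below the 3 control libraries in 25 of the 33 tested members, against 54.0% of all genes: above in 14 (all genes 26.4%) and below in 11 (all genes 27.6%). A called change of at least 2-fold was seen in 10 members, where 11.9% of all genes had one. The median log2 fold change was 0.53 over the 18 tested secreted factors and 0.76 over the 9 subunit, IkB and A20 genes, against -0.02 over all genes. The secreted median rested on scarce transcripts, since it was 0.06 when genes needed 1 CPM or more in 3 libraries, while that of the 9 genes was 0.74.

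**Figure D1:**
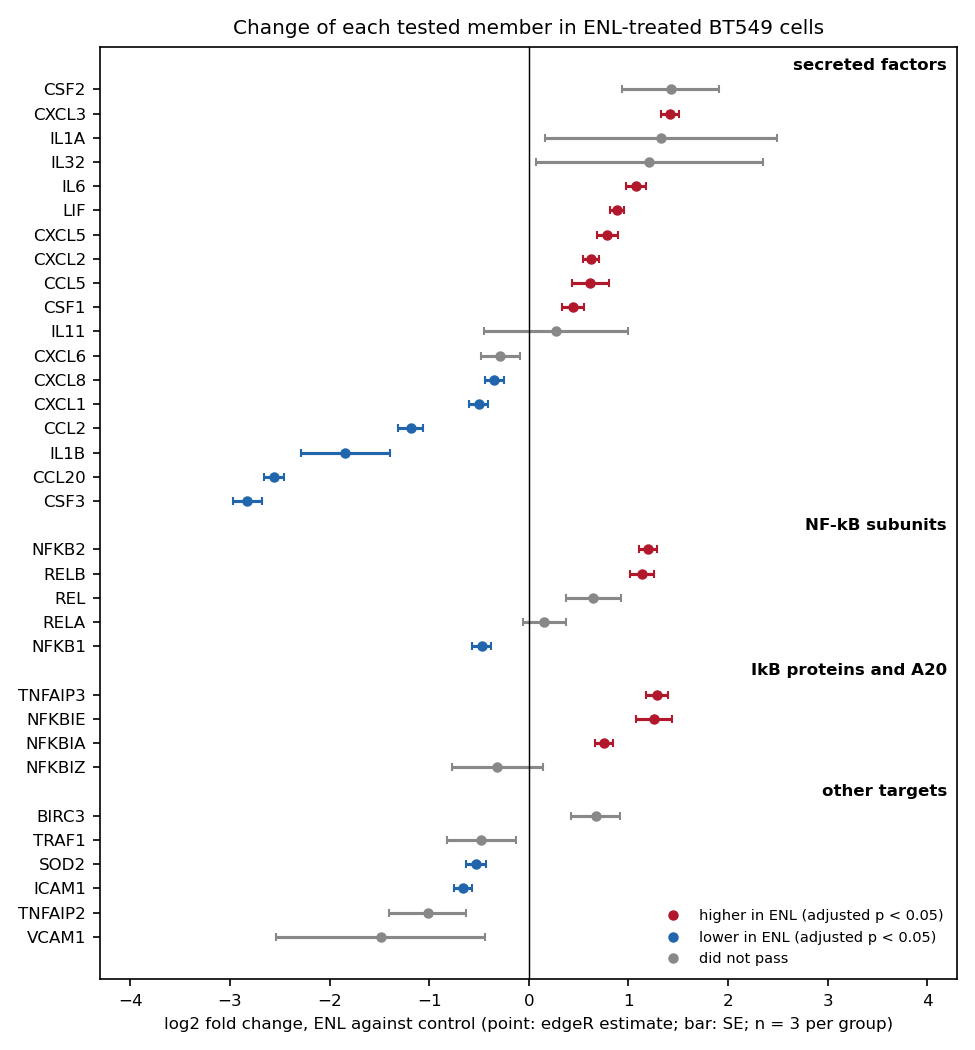
Log2 fold change (x axis) of the 33 tested members, by role, with the edgeR estimate as a point and its standard error as a bar (n = 3 libraries per group). CSF3 and CCL20 lie furthest to the left at -2.82 and -2.56, and 12 members lie on the higher and 9 on the lower side past the threshold.

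Colony-stimulating factors, the growth factors of myeloid cells, moved in different directions. CSF3 (chromosome 17, 40015361 to 40017813, plus strand, GRCh38), which encodes the granulocyte factor G-CSF, measured 58.3, 58.2 and 54.2 CPM in control libraries 1, 2 and 3 and 6.56, 8.32 and 9.20 CPM in ENL libraries 1, 2 and 3. Every ENL library lay far below every control library. The mean fell from 56.9 ± 2.35 to 8.03 ± 1.34 CPM (SD, n = 3), a log2 change of -2.82 ± 0.14 (SE; adjusted p = 4.24e-05). As in any bulk sample, fewer producing cells and less RNA per cell cannot be told apart here. CSF1, the macrophage factor gene, measured 21.4, 23.3 and 19.6 CPM in control and 31.3, 28.8 and 27.2 in ENL, with no overlap, and rose by 0.44 ± 0.11 (adjusted p = 0.0177). That small rise did not pass without control library 1 (adjusted p = 0.0575), control library 3 (0.0700) or ENL library 1 (0.0582), or when libraries were scaled by their totals alone (0.111). Nor did the rise of CSF1 pass against a 1.2-fold change with edgeR's glmTreat (adjusted p = 0.082). CSF2, which encodes GM-CSF, was scarce, at 12, 28 and 32 units in control and 54, 56 and 58 in ENL. The groups did not overlap, and its log2 fold change was 1.42 ± 0.49 (adjusted p = 0.0568). It passed in the DESeq2 Wald test (adjusted p = 0.0305), limma-voom (0.0388) and with counts divided by 4 (0.0318).

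The chemokines that attract monocytes and lymphocytes also divided. CCL20 (chromosome 2, 227805739 to 227817564, plus strand), the ligand of CCR6, measured 51.9, 49.5 and 49.4 CPM in control libraries 1 to 3 and 9.06, 8.67 and 7.89 in ENL libraries 1 to 3. The libraries of each group lay close together and the groups far apart, with a log2 change of -2.56 ± 0.10 (adjusted p = 1.93e-05). CSF3 and CCL20 were the members called lower by at least 4-fold, a size reached by 1.63% of all genes tested. CCL2 (chromosome 17, 34255218 to 34257203, plus strand), a monocyte chemoattractant, measured 9.03, 9.04 and 9.82 CPM in control and 3.87, 4.14 and 4.27 in ENL. It fell 2.27-fold, by a log2 change of -1.18 ± 0.13 (adjusted p = 0.000708). CCL5, a T cell and monocyte chemokine, went the other way, from 6.95, 10.8 and 9.73 CPM to 14.5, 14.9 and 12.8. Its groups did not overlap, but control library 1 lay well below the other control libraries. The rise of 0.62 ± 0.18 on the log2 scale (adjusted p = 0.0345) did not pass without control library 1 (adjusted p = 0.0678), control library 3 (0.0733), ENL library 1 (0.0859) or ENL library 2 (0.0864). Nor did it pass under upper-quartile scaling (0.0573), scaling by library totals alone (0.103) or edgeR's glmTreat against a 1.2-fold change (0.0852). Control library 2, the library with the most leukocyte transcripts, was the highest control library for CCL5, and the part of those transcripts was not tested. Without control library 2 the log2 fold change of CCL5 was 0.75 (adjusted p = 0.0344). Of the 50-base words of the CCL5 transcript 16% also occur in other genes, with 10.9% in AC027290.2, so some reads could be credited to the wrong gene.

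Chemokines of the CXCL family that attract neutrophils through CXCR2 lie in a cluster on chromosome 4. CXCL1, CXCL2 and CXCL3 are close paralogs, as are CXCL5 and CXCL6. Sequences from the promoter windows of these 5 genes are shown because CXCL1 fell while CXCL2 and CXCL3 rose around the same NF-kB motif, and CXCL5 rose while CXCL6 did not pass. Each line gives 30 bases, 5′ to 3′ in the gene's direction, from RefSeq promoter windows (GRCh38.p14). Capitals mark the word GGGAATTTCC, an NF-kB (kappa-B) sequence, which starts 78 to 91 bases before the RefSeq start of each window. GENCODE starts, used for the gene positions given here, differ: in 4 of the 5 genes the word lies inside the GENCODE gene span, 20 bases after its start for CXCL2, 39 for CXCL3, 11 for CXCL5 and 91 for CXCL6. For CXCL1 both starts are the same. The stretches are chr4:73869304-73869333 (plus strand) for CXCL1, chr4:74099254-74099283 (minus) for CXCL2, chr4:74038749-74038778 (minus) for CXCL3, chr4:73998749-73998778 (minus) for CXCL5 and chr4:73836578-73836607 (plus) for CXCL6.
CXCL1: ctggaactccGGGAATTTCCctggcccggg
CXCL2: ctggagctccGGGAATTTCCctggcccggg
CXCL3: ctggagctccGGGAATTTCCctggcccggc
CXCL5: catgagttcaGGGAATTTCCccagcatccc
CXCL6: cctgagttcaGGGAATTTCCccagcatccc
Over 100 bases around the word, CXCL1 is 5 single-base edits (changes, insertions or deletions) away from the closest stretch of the CXCL2 window and 7 from that of CXCL3. CXCL5 is 7 edits away from the CXCL6 window, while CXCL1 and CXCL5 are 48 apart.

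CXCL1 fell, and CXCL2 and CXCL3 rose. CXCL1 (73869393 to 73871242, plus strand) measured 627, 598 and 563 CPM in control libraries 1 to 3 and 459, 425 and 378 in ENL libraries 1 to 3. All ENL libraries lay below all control libraries, and the log2 fold change was -0.50 ± 0.10 (adjusted p = 0.00661). CXCL2 (74097035 to 74099293, minus strand) measured 116, 115 and 107 CPM in control and 185, 174 and 161 in ENL. Its ENL libraries lay wholly above control, with a rise of 0.62 ± 0.08 (adjusted p = 0.00154). CXCL3 (74036589 to 74038807, minus strand) measured 17.5, 17.2 and 16.0 CPM in control and 47.3, 44.7 and 43.8 in ENL. It was again higher in every ENL library and rose 2.68-fold, by 1.42 ± 0.09 (adjusted p = 8.98e-05).

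The balance within the trio therefore differed between the groups. The ratio of CXCL1 to CXCL3 counts was 35.8, 34.8 and 35.1 in control libraries 1 to 3 and 9.71, 9.49 and 8.63 in ENL libraries 1 to 3. The groups were widely separated on this ratio, and the exact two-sided permutation test gave p = 0.1, the smallest that 3 against 3 libraries allow (0.1 after adjustment over 6 ratios). Since CXCL1 fell and CXCL3 rose without overlap, their ratio had to separate the groups, so that p-value adds no evidence of its own. The ratio of CXCL1 to CXCL2 was 5.29 ± 0.11 (SD, n = 3) in control and 2.42 ± 0.07 in ENL. Because the 3 transcripts are alike, some reads could be credited to the wrong paralog: 5.73% of the 50-base words of the CXCL1 transcript, and 5.26% of those of the CXCL3 transcript, also occur in CXCL2. For the CXCL2 transcript 9.24% of the words occur in other genes, with 5.13% in CXCL1.

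The other CXCL genes were less divided. CXCL5 (73995642 to 73998779, minus strand) measured 47.0, 47.0 and 45.6 CPM in control and 87.1, 68.6 and 85.7 in ENL. ENL library 2 was lowest of the ENL libraries but still above all control libraries, and the gene rose by 0.79 ± 0.11 (adjusted p = 0.00194). Its paralog CXCL6 measured 5.71, 5.10 and 6.47 CPM in control and 5.81, 4.42 and 3.92 in ENL, with overlapping groups and a log2 change of -0.29 ± 0.20 (adjusted p = 0.286). CXCL8 (73740506 to 73743716, plus strand), which encodes interleukin 8, measured 110, 99.9 and 99.3 CPM in control and 88.0, 72.3 and 83.1 in ENL. The groups did not overlap and the log2 fold change was -0.35 ± 0.10 (adjusted p = 0.0298). This small fall did not pass without control library 1 (adjusted p = 0.104), control library 2 (0.0690), control library 3 (0.0679) or ENL library 2 (0.0680), nor against a 1.2-fold change with edgeR's glmTreat (0.199).

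IL6 and LIF, cytokines of the IL-6 family, which signals through the receptor chain gp130, rose. CLCF1, a family ligand outside the 34 genes, fell from 25.5 ± 0.57 to 17.1 ± 1.37 CPM (adjusted p = 0.00507). IL6 (chromosome 7, 22725884 to 22732002, plus strand) measured 42.8, 47.3 and 48.7 CPM in control libraries 1 to 3 and 101, 103 and 88.8 in ENL libraries 1 to 3. Every ENL library had more than every control library, and IL6 rose 2.11-fold, by 1.08 ± 0.10 (adjusted p = 0.000333). LIF (chromosome 22, 30240447 to 30246851, minus strand), the leukaemia inhibitory factor, measured 93.3, 95.8 and 104 CPM in control and 177, 181 and 184 in ENL. It was equally well separated and rose by 0.89 ± 0.07 (adjusted p = 0.000254). IL11 was nearly absent, with 9 to 15 units in control and 4 to 24 in ENL. Exons of antisense transcripts overlap IL6 by 428 and LIF by 175 bases, and since the strand setting of the libraries is not given, reads of both strands cannot be told apart.

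The IL-1 genes, which encode upstream activators of the canonical branch, were scarce. IL1B (chromosome 2, 112829751 to 112836903, minus strand) measured 3.29, 8.45 and 3.20 CPM in control and 1.36, 1.79 and 1.02 in ENL. Control library 2 stood well above the other control libraries, and all ENL libraries lay below control. The log2 fold change was -1.84 ± 0.45 (adjusted p = 0.0183). Control library 2 is the library with the most leukocyte transcripts, and IL1B is a product of myeloid cells; the part of those transcripts in the result was not tested. Without control library 2 the log2 fold change was -1.22 (adjusted p = 0.0293). The fall did not pass without ENL library 1 (-1.82, adjusted p = 0.0603) or ENL library 3 (-1.65, adjusted p = 0.0632). IL1A had 0, 41 and 8 units in control and 32, 42 and 35 in ENL, IL32 had 10, 33 and 0 against 41, 26 and 19, and TNF had at most 10 units in any library. Control library 2 was the highest control library for IL1A and IL32 too, and neither gene passed the test (adjusted p = 0.403 and 0.437).

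**Figure D2:**
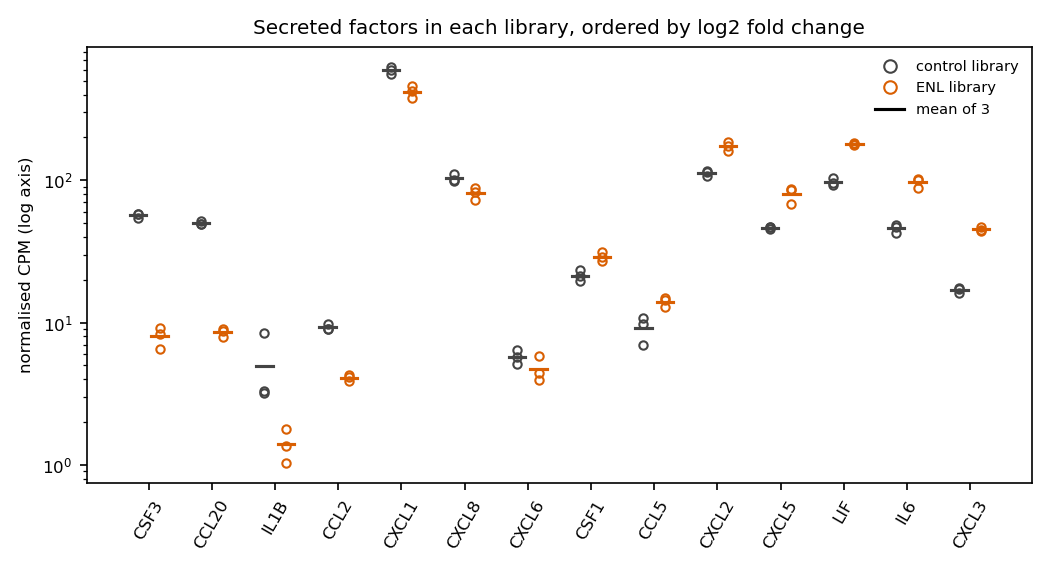
Normalised CPM (y axis, log scale) of the 14 secreted factors whose mean reached 1 CPM in a group, in each control and ENL library, with the mean of 3 as a line, ordered by log2 fold change. CSF3 drops from 56.9 to 8.03 CPM on the left, CXCL3 climbs from 16.9 to 45.3 on the right, and IL1B shows control library 2 standing above the other control libraries.

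Set per kilobase of the longest protein-coding transcript, the order of the secreted factors changed below the top. CXCL1 led in both groups, at 543 ± 29.3 CPM per kilobase (SD, n = 3) in control and 383 ± 37.1 in ENL, and CXCL2 followed at 92.5 ± 3.74 and 142 ± 10. In control the next places were held by CXCL8 (60.5 ± 3.51) and CCL20 (59.9 ± 1.70), whose libraries overlapped, then CSF3 (34 ± 1.41), IL6 (30.3 ± 2.00) and LIF (24.6 ± 1.35). In ENL they were held by IL6 (63.9 ± 4.99), CXCL8 (47.6 ± 4.71) and LIF (45.5 ± 0.89), of which CXCL8 and LIF overlapped, then CXCL3 (42.1 ± 1.68) and CXCL5 (31.7 ± 4.06). CCL20 went from rank 4 to rank 9, where its libraries overlapped those of CCL5, and CSF3 from rank 5 to rank 12, where they overlapped those of CCL2. Summed over all 19 secreted factors the level was 1137 to 1211 CPM in control libraries and 1092 to 1219 in ENL libraries, and the share of CXCL1 in that sum was 49.5% to 51.8% in control and 34.6% to 37.6% in ENL.

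**Figure D3:**
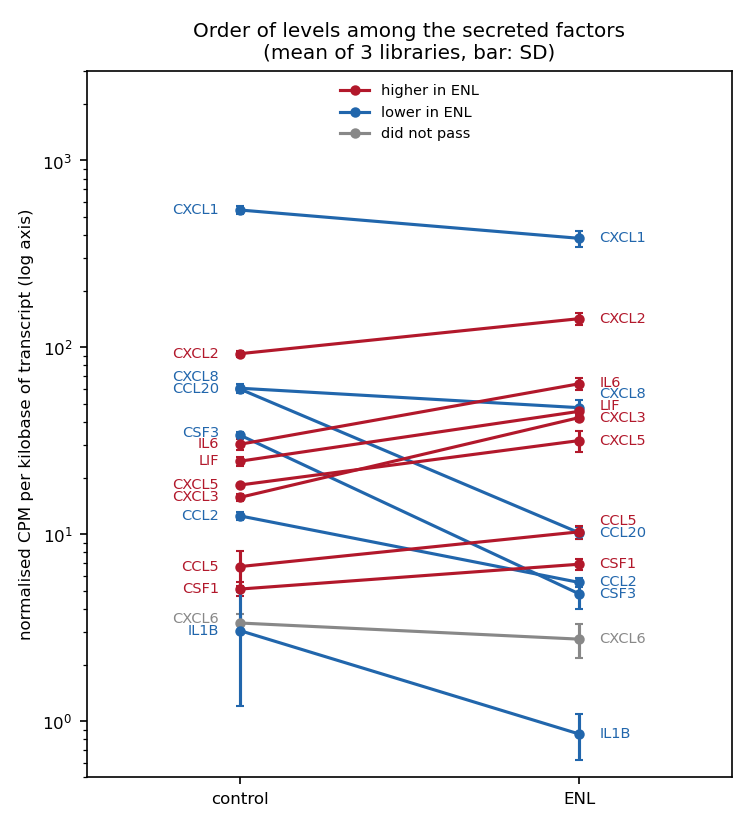
Mean normalised CPM per kilobase of transcript (y axis, log scale; bars are SD of 3 libraries) of 14 secreted factors in control and ENL. The lines of CCL20 and CSF3 cross those of IL6, LIF, CXCL3 and CXCL5 on their way from rank 4 and 5 to rank 9 and 12 of 19.

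The NF-kB subunits changed unevenly. NFKB2 (chromosome 10, 102394110 to 102402529, plus strand), which encodes the precursor of p52, measured 126, 133 and 137 CPM in control libraries 1 to 3 and 299, 331 and 280 in ENL libraries 1 to 3. All ENL libraries were above control, and NFKB2 rose 2.29-fold, by 1.2 ± 0.09 (adjusted p = 0.000154). RELB (chromosome 19, 45001430 to 45038198, plus strand), its partner in the non-canonical branch, measured 17.7, 20.3 and 18.3 CPM in control and 41.9, 45.7 and 36.1 in ENL. It was likewise separated and rose by 1.14 ± 0.12 (adjusted p = 0.000655). NFKB1 (chromosome 4, 102501329 to 102617302, plus strand), which encodes the precursor of p50, measured 45.1, 45.4 and 47.1 CPM in control and 29.5, 34.3 and 35.4 in ENL. Every ENL library lay below control, and the log2 fold change was -0.47 ± 0.10 (adjusted p = 0.00943). The ratio of NFKB2 to NFKB1 counts was 2.80, 2.94 and 2.92 in control and 10.2, 9.66 and 7.92 in ENL (exact two-sided permutation p = 0.1, the smallest possible; 0.1 after adjustment over 6 ratios). Since NFKB2 rose and NFKB1 fell without overlap, the ratio of NFKB2 to NFKB1 had to separate the groups, and its p-value adds no evidence of its own. The ratio of RELB to RELA was 0.201, 0.223 and 0.208 in control and 0.588, 0.488 and 0.272 in ENL, with ENL library 3 nearest to control.

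RELA and REL, the main activating partners of the canonical branch, followed ENL library 3. RELA (chromosome 11, 65653596 to 65663094, minus strand) measured 88.2, 90.9 and 88.0 CPM in control and 71.3, 93.7 and 133 in ENL. The control libraries agreed closely while the ENL libraries fell on both sides of them, with a log2 change of 0.16 ± 0.21 (adjusted p = 0.595). Without ENL library 3 it was -0.10 (adjusted p = 0.575), and it also turned negative under scaling by library totals (-0.04, adjusted p = 0.907). REL (chromosome 2, 60881521 to 60931610, plus strand) measured 8.60, 7.58 and 9.54 CPM in control and 11.1, 9.73 and 19.5 in ENL. All ENL libraries were above control, but ENL library 2 only just, and the log2 change of 0.65 ± 0.27 did not pass (adjusted p = 0.102). It was 0.29 without ENL library 3 (adjusted p = 0.167), and with the length and GC correction it was 0.64 and passed (adjusted p = 0.0418). Of the 50-base words of the longest REL transcript 50.4% also occur in AC010733.2, a noncoding gene that overlaps its 3′ end, so reads there could be divided.

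Of the 4 genes of IkB proteins and A20, 3 rose (75%, all genes 20%) and 0 fell (all genes 18.4%), and NFKBIZ did not pass. NFKBIA (chromosome 14, 35401511 to 35404749, minus strand), which encodes IkB-alpha, measured 62.4, 71.2 and 71.1 CPM in control libraries 1 to 3 and 121, 117 and 107 in ENL libraries 1 to 3. The groups were far apart and NFKBIA rose by 0.76 ± 0.09 (adjusted p = 0.00110). TNFAIP3 (chromosome 6, 137867188 to 137883312, plus strand), which encodes the ubiquitin-editing enzyme A20, measured 27.9, 27.1 and 23.1 CPM in control and 58.7, 62.4 and 69.5 in ENL. It too was higher in all ENL libraries and rose 2.44-fold, by 1.29 ± 0.11 (adjusted p = 0.000312). NFKBIE (chromosome 6, 44258166 to 44265788, minus strand), the gene of IkB-epsilon, measured 10.6, 9.77 and 7.52 CPM in control and 24.8, 23.5 and 18.3 in ENL. Control library 3 and ENL library 3 were lowest in their groups, the groups did not overlap, and NFKBIE rose by 1.26 ± 0.18 (adjusted p = 0.00217).

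NFKBIZ (chromosome 3, 101827991 to 101861022, plus strand), which encodes the nuclear IkB-zeta, a cofactor rather than a cytoplasmic inhibitor, split the libraries in another way. It measured 126, 115 and 51.6 CPM in control libraries 1 to 3 and 53.2, 59.4 and 122 in ENL libraries 1 to 3. Library 3 of each group stood at the level of libraries 1 and 2 of the other group, so that the groups overlapped fully (log2 fold change -0.32 ± 0.46, adjusted p = 0.620). Without library 3 of both groups, a setting chosen after the values were seen, the log2 fold change was -1.09 (adjusted p = 0.00282). Without control library 3 alone it was -0.62 (adjusted p = 0.308) and without ENL library 3 alone -0.78 (adjusted p = 0.218). NFKBIA, TNFAIP3, NFKB2 and RELB kept their groups apart in the same 6 libraries.

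**Figure D4:**
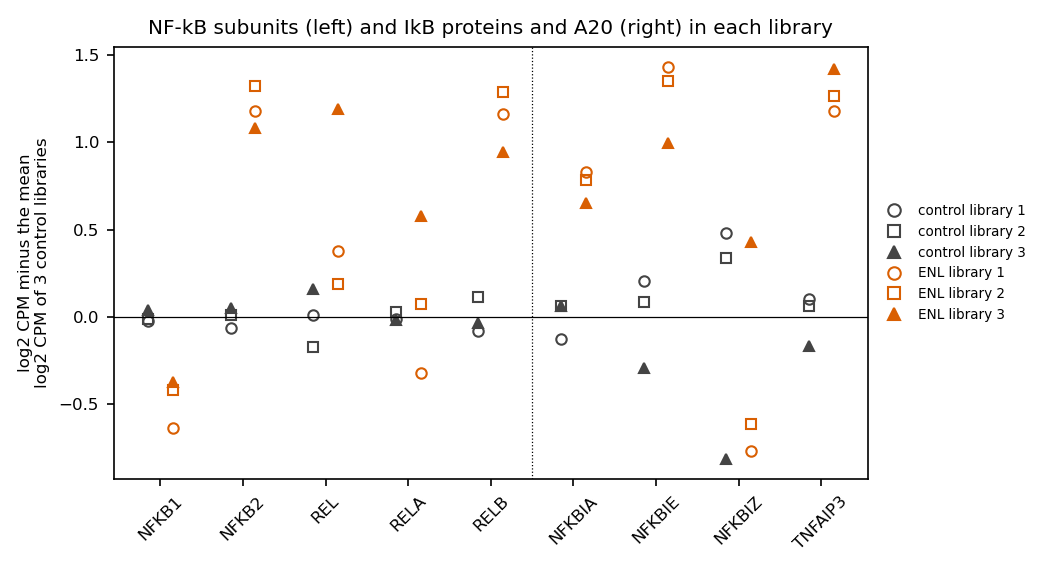
Log2 CPM of each library minus the mean log2 CPM of the 3 control libraries (y axis) for the 5 subunits (left) and 4 IkB and A20 genes (right), with library 3 of each group as filled triangles. NFKB2, RELB, NFKBIA, NFKBIE and TNFAIP3 lie above and NFKB1 below control in all ENL libraries, while ENL library 3 stands above the other ENL libraries for REL, RELA and NFKBIZ.

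Promoter windows of regulators and of further secreted factors are shown for comparison with those of the CXCL genes, since they hold the same or a related motif in genes that went in opposite directions. NFKB1 fell and holds the word GGGAATTTCC in the same orientation, 49 bases before its RefSeq start and 19 before its GENCODE start (chr4:102501300-102501329, plus strand). NFKBIA rose and holds its reverse complement, 81 bases before both starts (chr14:35404811-35404840, minus strand). CCL20 fell and IL6 rose, and their windows (chr2:227813753-227813782 and chr7:22727117-22727146, both plus strand) hold other matches to the kappa-B consensus 79 and 73 bases before the RefSeq start of the window. The GENCODE spans of CCL20 and IL6 begin further upstream, so that these matches lie 8024 and 1243 bases inside them. Capitals mark the match.
NFKB1: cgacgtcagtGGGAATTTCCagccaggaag
NFKBIA: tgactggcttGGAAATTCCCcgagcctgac
CCL20: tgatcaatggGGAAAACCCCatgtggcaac
IL6: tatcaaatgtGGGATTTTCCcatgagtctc
RefSeq windows of 300 bases (250 before to 50 after the start, GRCh38.p14) were found for 27 of the 34 members. The word GGGAATTTCC, searched on both strands, was found in 9 of these 27 members (33.3%) and in 0.179% of 27305 genes, where a gene counts if any of its windows holds it. The word is the one in the CXCL1 window, so CXCL1 holds it by choice. Windows of CXCL1, CXCL2 and CXCL3 are near-identical, as are those of CXCL5 and CXCL6, so these CXCL genes are not separate cases. Of these 9, 4 rose (CXCL2, CXCL3, CXCL5 and NFKBIA), 2 fell (CXCL1 and NFKB1) and 3 did not pass (CXCL6, NFKBIZ and REL). The wider kappa-B consensus, which includes that word, was in 16 of 27 members (59.3%) and in 13.3% of all genes, counted in the same way. By single window the shares over all 35116 windows were 0.145% for the word and 11.3% for the consensus, and 8 of the 27 members had several windows. The consensus searched was GGGRNNYYCC or its reverse complement (R is A or G, Y is C or T, N is any base), without mismatches. It was found in 7 of 7 members that rose and had a window, 3 of 7 that fell and 6 of 12 that did not pass. Sites of other spelling, or outside the windows, would be missed. No window was found for CCL5, CSF1, LIF, RELB and NFKBIE, which rose, or for CCL2 and CSF3, which fell. Windows of CXCL2 and CXCL3 are near-identical, and NFKB2 had 3 windows, so these are not equal, separate cases. A match is a run of letters and no measure of binding.

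Of the 6 other targets 2 fell (33.3%, all genes 18.4%) and 0 rose (all genes 20%). ICAM1 (chromosome 19, 10270835 to 10286615, plus strand), a leukocyte adhesion receptor, measured 101, 107 and 107 CPM in control libraries 1 to 3 and 62.7, 73.0 and 63.9 in ENL libraries 1 to 3. All ENL libraries were lower, with a log2 change of -0.66 ± 0.09 (adjusted p = 0.00166). SOD2 (chromosome 6, 159669057 to 159745186, minus strand), the mitochondrial manganese superoxide dismutase, measured 538, 499 and 580 CPM in control and 335, 404 and 379 in ENL. Its groups did not overlap either, and the log2 fold change was -0.53 ± 0.10 (adjusted p = 0.00642). SOD2 shares 298 exon bases with WTAP on the opposite strand, and the sum of both genes had a log2 change of -0.31 (adjusted p = 0.0207). ICAM1 shares 815 exon bases with an antisense transcript.

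The calls of TNFAIP2 and BIRC3 turned on ENL library 2 and on the method. TNFAIP2, which encodes a protein of membrane protrusions, measured 8.06, 10.8 and 9.68 CPM in control and 3.24, 7.81 and 3.09 in ENL, with all ENL libraries below control. Its log2 change of -1.02 ± 0.38 did not pass (adjusted p = 0.0789), and without ENL library 2 it was -1.59 (adjusted p = 0.00274). With all libraries it passed in the DESeq2 Wald test (0.0189), limma-voom (0.0302) and under scaling by library totals (0.0343). BIRC3, the gene of the ubiquitin ligase cIAP2, measured 10.4, 13 and 13.7 CPM in control and 24.3, 12.9 and 21.9 in ENL. ENL library 2 lay among the control libraries, the log2 fold change was 0.67 ± 0.25 (adjusted p = 0.0695), and without that library it was 0.90 (adjusted p = 0.00885). With all libraries it passed in the DESeq2 Wald test (adjusted p = 0.0255) and with the length and GC correction (0.0493). The signalling adaptor gene TRAF1 was at 1.29 ± 0.25 CPM in control and 0.93 ± 0.31 in ENL (adjusted p = 0.312), and the adhesion receptor gene VCAM1 had at most 17 units in any library.

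Of 11 tested receptor genes for the secreted factors 4 fell (36.4%, all genes 18.4%) and 1 rose (9.09%, all genes 20%), with a median log2 fold change of -0.33. The TNF receptor gene TNFRSF1B rose by 1.42 ± 0.20, from 4.76 ± 1.16 to 12.7 ± 0.75 CPM (adjusted p = 0.00190). The IL-11 receptor gene IL11RA had a log2 change of -0.73 ± 0.10 (adjusted p = 0.00175), the oncostatin M receptor gene OSMR -0.40 ± 0.08 (adjusted p = 0.00874) and the decoy receptor gene IL1R2 -1.90 ± 0.50 at under 1 CPM (adjusted p = 0.0228). The gp130 gene IL6ST was at 120 ± 0.28 CPM in control and 107 ± 19.1 in ENL (adjusted p = 0.345). IL6ST was chosen after its values were seen. Of 6 tested Toll-like receptor genes, all at low levels, 2 fell (33.3%, all genes 18.4%) and 0 rose (all genes 20%). Their median log2 fold change was 0.12. The genes that fell were TLR9, with a log2 change of -1.72 ± 0.33 (adjusted p = 0.00656), and TLR2, with -1.53 ± 0.37 (adjusted p = 0.0160).

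In the signalling steps between receptor and NF-kB, 9 of 30 tested adaptor and kinase genes rose (30%, all genes 20%) and 3 fell (10%, all genes 18.4%), with a median of 0.10. The kinase genes IRAK2 and RIPK2, which act below IL-1 and NOD receptors, rose by 1.59 ± 0.09 and 1.21 ± 0.07, and RBCK1, a subunit of the linear ubiquitin ligase, by 1.44 ± 0.10 (adjusted p = 7.28e-05, 8.32e-05 and 0.000129). RIPK1, the kinase bound to TNF receptor complexes, fell from 36.6 ± 0.29 to 11.3 ± 0.70 CPM, a log2 change of -1.69 ± 0.10 (adjusted p = 5.73e-05). UBE2N, a ubiquitin-conjugating enzyme gene, and CHUK, the gene of IkB kinase alpha, also fell (-0.48 ± 0.12, adjusted p = 0.0196, and -0.91 ± 0.24, adjusted p = 0.0253). In the non-canonical list 10% of 10 tested genes went each way, below the 20% higher and 18.4% lower of all genes: 1 rose, the BAFF receptor gene TNFRSF13C (0.55 ± 0.16, adjusted p = 0.0317), and 1 fell, MAP3K14, which encodes NIK (-0.87 ± 0.26, adjusted p = 0.0408).

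Further inhibitors and IkB relatives rose in 6 of 16 tested cases (37.5%, all genes 20%) and fell in 1 (6.25%, all genes 18.4%), with a median of 0.31. BCL3, a nuclear IkB protein that binds p50 and p52, rose from 40.2 ± 2.22 to 115 ± 9.89 CPM, by 1.51 ± 0.10 (adjusted p = 8.98e-05). The nuclear IkB gene NFKBID rose by 1.04 ± 0.17 (adjusted p = 0.00362) and ZC3H12A, an RNase that degrades cytokine transcripts, by 0.40 ± 0.08 (adjusted p = 0.00897). Scaling by library totals gave 0.19 for ZC3H12A (adjusted p = 0.106) and glmTreat did not pass it (0.0761). TNIP1, a partner of A20, fell from 221 ± 12.9 to 116 ± 19.0 CPM, a log2 change of -0.93 ± 0.13 (adjusted p = 0.00200). Of 12 genes of cytokine transcript decay and stability 3 rose (25%, near the 20% of all genes) and 0 fell (all genes 18.4%), with a median of 0.51. ZFP36L1, which binds AU-rich elements, rose by 1.59 ± 0.11 (adjusted p = 0.000142) and the RNA-binding protein gene TIAL1 by 0.73 ± 0.08 (adjusted p = 0.000749). ARID5A, which stabilises the IL6 transcript, rose by 1.21 ± 0.39 (adjusted p = 0.0478).

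Among 42 further NF-kB targets 13 rose (31.0%, all genes 20%) and 12 fell (28.6%, all genes 18.4%), with a median of -0.10. IRF1, an interferon regulatory factor, rose from 26.6 ± 3.14 to 144 ± 2.14 CPM, by 2.44 ± 0.10, the ubiquitin ligase gene RNF19B by 1.77 ± 0.08 and the early response gene IER3 by 2.25 ± 0.12 (adjusted p = 2.46e-05, 2.69e-05 and 4.26e-05). The acute-phase genes SAA1 and SAA2, which are near-identical copies, and the glucose transporter gene SLC2A6 had log2 fold changes of -3.54 ± 0.25, -3.85 ± 0.47 and -1.01 ± 0.12 (adjusted p = 0.000142, 0.00116 and 0.000929). Of 15 tested other cytokines and chemokines 3 rose (20%, as over all genes) and 1 fell (6.67%, all genes 18.4%), with a median of 0.17. The TNF-family ligand gene TNFSF9 rose by 1.73 ± 0.15, the epithelial cytokine gene TSLP by 1.94 ± 0.21 and IL12A by 0.86 ± 0.24 (adjusted p = 0.000287, 0.000675 and 0.0280), and CLCF1, another IL-6 family ligand, had a log2 change of -0.58 ± 0.10 (adjusted p = 0.00507). Among the marker genes, CD14, a co-receptor of Toll-like receptors, fell from 9.68 ± 1.31 to 1.71 ± 0.57 CPM (log2 fold change -2.51 ± 0.26, adjusted p = 0.000666), and KRT8, VIM and FN1 rose by 1.27 ± 0.15, 1.12 ± 0.14 and 0.42 ± 0.10 (adjusted p = 0.000991, 0.00122 and 0.0180).

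Some of these calls in the pathway lists rested on single libraries or on the scaling. The calls of UBE2N (without control library 1, control library 2 or ENL library 2), CHUK (without control library 1 or 3 or ENL library 2 or 3), MAP3K14 (without control library 2 or 3 or ENL library 2), TLR2 (without control library 3) and FN1 (without control library 2) were lost, with highest adjusted p-values of 0.0646, 0.0790, 0.114, 0.0748 and 0.0678. Those of IL1R2, IL12A, ARID5A and TNFRSF13C were lost without any of 5 libraries, that is all but ENL library 3, with highest adjusted p-values of 0.0817, 0.0863, 0.135 and 0.0927. Scaling by library totals also ended the calls of TNFRSF13C (adjusted p = 0.109), IL12A (0.0610), ARID5A (0.0716) and FN1 (0.201), and upper-quartile scaling those of TNFRSF13C (0.0589) and ARID5A (0.0602). Against a 1.2-fold change, glmTreat did not pass OSMR (0.0722), UBE2N (0.0740), MAP3K14 (0.0732), TNFRSF13C (0.0877), IL12A (0.0540), ARID5A (0.0737) and FN1 (0.0949).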

How the data were processed

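Gene expression was measured by mRNA sequencing in 3 control and 3 ENL libraries of BT549. The authors deposited a single table of estimated counts. FastQC, STAR, StringTie and DESeq2 appear in the submitters' processing notes together with hg38, without roles or parameters. The annotation and strand setting were not given in the sources used here. Values were whole numbers and needed no rounding. They gathered at multiples of 4 or 1 above (70.8% to 73.1% of values from 4 to 43), so low values may carry more counting error than their size shows. Evenly spread whole numbers would also often fall at these places, so the excess is smaller than that share. No pair of replicates agreed within sampling noise (chi-square per degree of freedom 20.2 to 52.2 after division by 4), so all 6 libraries were counted.

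Low genes were removed by filterByExpr of edgeR (minimum count 10). After TMM scaling, glmQLFit (robust) and glmQLFTest gave the tests (two-sided, Benjamini-Hochberg over 14086 genes, threshold 0.05), with the group as the single term. Standard errors are the log2 fold change divided by the square root of F. CPM values use the same factors. Versions were edgeR 4.0.16, DESeq2 1.42.0 and limma 3.58.1 under R 4.3.3, and the fit was tested on simulated data. Positions and lengths come from GENCODE 29 (GRCh38, the assembly hg38 names), matched for 19790 of 19923 symbols.

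The members and gene lists were chosen with earlier results of these data known. The text names all members and, from each other list, the 3 genes past the threshold with the smallest adjusted p per direction. Alternatives were other scalings (DESeq2 size factors, upper quartile, library totals), the DESeq2 Wald test, limma-voom, other filters, the replicate block, counts divided by 4, glmTreat and each library left out. Added after seeing the data were a length and GC correction, overlapping genes summed, and library 3 of both groups left out.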

Additional observations from a re-analysis of the deposited data

How the results depend on the processing

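Of the 21 called members, 17 kept direction and call in all 19 alternatives; the exceptions were IL1B, CXCL8, CCL5 and CSF1. Scaling by library totals alone moved the median of all genes from -0.02 to -0.23 and the calls from 2819 higher and 2585 lower (52.2% higher) to 1804 and 3996 (31.1% higher); it gave medians of 0.32 for the secreted factors and 0.55 for the subunit, IkB and A20 genes, and RELA turned to -0.040. Upper-quartile scaling moved the median of all genes to -0.11 and gave 0.45 and 0.67. The secreted median was 0.62 with no filter on low counts, 0.060 when genes needed 1 CPM or more in 3 libraries and 0.43 with counts divided by 4. The length and GC correction gave 0.66 for the subunit, IkB and A20 genes and 1 higher among the other targets, as did the DESeq2 Wald test (1). The glmTreat test left 1713 genes lower.

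With each library left out in turn, the secreted median ran from 0.45 to 0.60, that of the subunit, IkB and A20 genes from 0.70 to 0.84, the other targets higher from 0 to 1, genes higher from 2072 to 3156 and genes lower from 1743 to 2877. With each library left out, RELA ran from -0.095 to 0.35 and IL11 from -0.29 to 0.68. Both changed sign without ENL library 3 and without library 3 of both groups (-0.11 and -0.26); that last setting gave 2 lower among the subunit, IkB and A20 genes and a median of 0.85.

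It cannot be told whether replicate numbers pair the libraries. Same-numbered libraries had deviations correlated at 0.04, 0.11 and 0.11, and each correlated best with its own number. Between libraries of different number the correlations ran from -0.13 to 0.03. With the replicate block 11 members were higher and 10 lower, against 12 and 9; CCL5 lost its call (adjusted p = 0.0523) and TNFAIP2 gained one (0.0323). Depth limits IL1A, IL11, IL32, CSF2, VCAM1 and TNF, which had at most 58 units in any library.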
